A study of Sus scrofa domesticus with 9 samples.

Results

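Transcripts of 5 caspases, CASP6, CASP1, CASP2, CASP8 and CASP9, were examined in the lungs of pigs fed an increased or a standard dose of cholecalciferol (vitamin D3). The genes were picked by symbol out of 35670 genes in the table of normalized counts. The choice was made because the study had listed CASP6 among the genes whose transcripts were higher at the increased dose. The dose differences of the caspases are therefore given as a description, without a test. The authors' table named 4 of the 5 genes, and CASP1 was found by its Ensembl identifier (ENSSSCG00000028711), which an Ensembl name table pairs with that symbol.

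The increased-dose group consisted of 5 pigs (replicates 3, 19, 27, 51 and 59), whose grower feed contained 3000 IU of cholecalciferol per kg and whose finisher feed contained 2500 IU. The standard-dose group consisted of 4 pigs (replicates 9, 17, 33 and 41), whose grower and finisher feeds contained 2000 and 1500 IU per kg. All were domestic pigs that reached a slaughter weight of 110 kg after 88 days of feeding, and neither group was without added cholecalciferol. The labels and the methods give the sequenced animals as females, although the discussion of the study speaks of males. One piece from the middle of the upper lobe of the left lung gave 1 library per animal, and 1 of the 10 libraries made had been rejected by the authors.

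Caspases are proteases that cut other proteins after an aspartate residue, using a cysteine in their active site. The initiators CASP8, CASP9 and CASP2 are switched on when they are brought together on adaptor platforms. CASP8 acts at death receptors, CASP9 on the apoptosome that forms around cytochrome c released from mitochondria, and CASP2 on the PIDDosome, which responds to DNA damage and surplus centrosomes. CASP6 is an effector known for cutting nuclear lamins, and CASP1 is the inflammasome protease that matures interleukin 1 beta and interleukin 18 and opens the pore protein GSDMD. Caspases are made as inactive precursors, so that transcript levels do not show protease activity.

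A feature that the 5 genes share is the stretch around the catalytic cysteine, shown here because it was found in each of them. The coding strand of RefSeq (Sscrofa11.1, the build of the authors' files) is given, with 6 bases on each side in lower case. Capitals mark the codons for glutamine, alanine, cysteine, a variable residue and glycine.
CASP6: atcattCAGGCGTGTCGGGGAaaccag
CASP1: attatcCAGGCTTGCCGTGGTgagaag
CASP2: ttcatcCAGGCCTGCCGTGGAgatgaa
CASP8: ttcattCAGGCTTGTCAAGGGgataaa
CASP9: ttcatcCAGGCCTGCGGCGGGgaacag

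The stretch of CASP8 lies unbroken in 1 exon at chr15:104944822-104944848 on the plus strand. Those of the other 4 genes are joined across an intron, between chr8:112529752-112533056 for CASP6 (plus strand), chr9:35191380-35191823 for CASP1, chr18:6949771-6953530 for CASP2 and chr6:74711824-74718325 for CASP9 (minus strand). The cysteine was residue 160 of 289 in CASP6, which has the shortest coding sequence. It was residue 283 of 402 in CASP1, 327 of 459 in CASP2, 367 of 486 in CASP8 and 310 of 438 in CASP9. The variable residue is encoded by CGG in CASP6, CGT in CASP1 and CASP2, CAA in CASP8 and GGC in CASP9. Any 2 of the 27-base stretches shared 18 to 21 bases, and CASP6 shared 18 with each of the other 4. Of 19615 RefSeq coding genes, 73 (0.372%) encode this pentapeptide, 68 of them outside the 5 genes, so that the 5 residues alone do not mark a caspase.

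The values are normalized counts, which are reads in a gene divided by a DESeq2 size factor of the library. One read was worth 0.853 to 1.49 normalized counts, so that whole reads could be recovered. The libraries held 4427608 to 5919294 reads in genes at the increased dose and 4253502 to 5411543 at the standard dose. The QuantSeq kit gives reads from the 3′ end of transcripts, so the counts of different genes do not scale with transcript length. They depend on where each gene model ends. The models in the authors' file ended beyond those of RefSeq by 4495 bases for CASP2, 2730 for CASP6, 1646 for CASP1, 1081 for CASP9 and −2 for CASP8. The part of these ends in the differences between caspases was not tested. A filter on a mean normalized count over 20 kept 12446 genes, and 4 of the 5 caspases passed it. In bulk tissue, fewer cells of a type and less RNA per cell cannot be told apart.

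Standard-dose replicates 9 and 41 stood apart from the rest, with median rank correlations with the other libraries of 0.751 and 0.831, against 0.912 to 0.933 for the remaining 7. Lung markers were present in every library, but markers of hepatocytes, which lung should lack, were present as well. Of 20 hepatocyte markers, 19 passed the filter and none was at 0 in all libraries, and their summed normalized count was 32998 to 69157 at the increased dose and 58854 to 441643 at the standard dose. All 8 markers of type 1 pneumocytes, the flat cells of the alveolar wall, had a higher mean log2 level at the increased dose, where their sum was 8486 to 14590, against 2739 to 8543 at the standard dose. The sum of 9 macrophage markers was 14291 to 22181 at the increased dose and 3896 to 16767 at the standard dose. Skeletal muscle markers, also foreign to lung tissue, were present too, and 6 of 7 passed the filter, with sums of 60682 to 144449 at the increased dose and 35805 to 252749 at the standard dose. All 6 had lower mean log2 levels at the increased dose, and standard-dose replicates 9 and 41 had the lowest and the highest mean marker level, 10.82 and 13.69. The part of these cell markers in the caspase values was not tested. The dose differences of CASP6, CASP1, CASP2 and CASP8 are also described with the hepatocyte markers as a covariate and without replicates 9 and 41. The neighbours of CASP6, the read shares and the values of single listed genes are given with all libraries only.

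CASP6 (ENSSSCG00000009140, chr8:112520629-112537045, plus strand) had normalized counts of 75.1, 61.4, 106, 150 and 123 in increased-dose replicates 3, 19, 27, 51 and 59, against 31.3, 52.1, 27.0 and 43.7 in standard-dose replicates 9, 17, 33 and 41. The 2 groups did not overlap, with increased-dose replicate 19 and standard-dose replicate 17 nearest to each other. The values rested on 72 to 146 reads per library at the increased dose and 21 to 57 at the standard dose. Means were 103 ± 36.0 and 38.5 ± 11.5 (SD, n = 5 and 4), and the difference of the mean log2 levels, log2(normalized count + 1), was 1.37 (SE 0.34), or 2.59-fold. This difference was larger than that of 98.9% of the genes that passed the filter. The groups were apart in this way, with higher values at the increased dose, for 1 of the 4 caspases that passed and for 1.8% of the 12446 genes. CASP6 was the reason for the choice, so nothing follows from that count or from the rank of its difference among all genes.

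The CASP6 difference was 1.36 without standard-dose replicates 9 and 41, 1.12 with the mean level of the hepatocyte markers as a covariate, and 1.22 to 1.54 when each library was left out in turn. Since the groups do not overlap, leaving out libraries could not turn its sign. The nearest genes that passed the filter are PLA2G12A, a secreted phospholipase gene that ends 8209 bases before CASP6, and MCUB, a subunit gene of the mitochondrial calcium uniporter that lies on the other strand, 2143 bases after it. PLA2G12A had 101 ± 35.4 and 80.7 ± 39.1 normalized counts (increased and standard dose) and MCUB had 62.5 ± 15.7 and 43.9 ± 7.94. Neither passed the threshold in limma, with log2 differences of 0.36 and 0.47 and Benjamini-Hochberg adjusted p of 0.671 and 0.511. The gene model of CASP6 in the authors' file ends 2730 bases beyond that of RefSeq, which bears on where 3′ reads are counted.

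**Figure D1:**
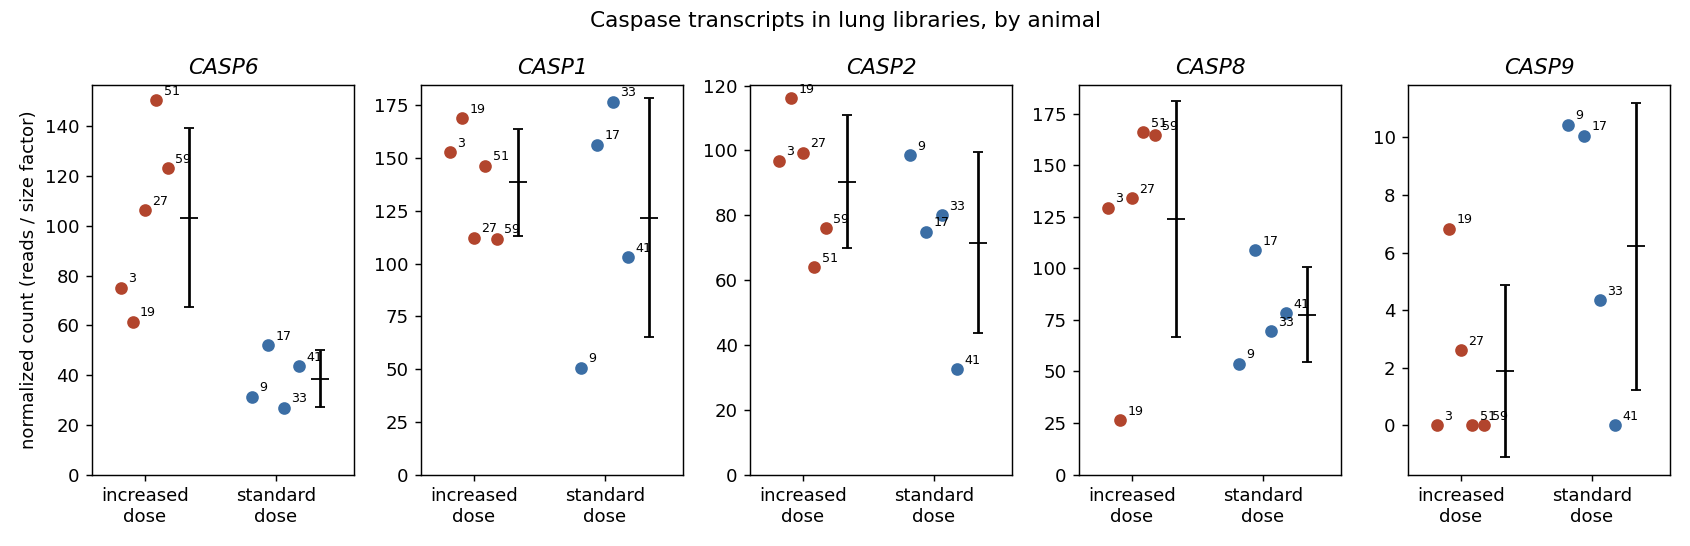
Normalized counts (reads divided by the size factor) of the 5 caspases by animal, with increased-dose pigs in red to the left of standard-dose pigs in blue, replicate numbers beside the points, and bars for the mean ± SD (n = 5 and 4). CASP6 is the one whose groups do not overlap, and each gene has its own axis, reaching 150 for CASP6 but only 10.4 for CASP9.

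CASP8 (ENSSSCG00000028157, chr15:104923953-104948468, plus strand) had normalized counts of 129, 26.4, 134, 166 and 165 at the increased dose and 53.7, 109, 69.6 and 78.3 at the standard dose, in the order of replicates used for CASP6. The increased-dose group held both the highest value of the 9 libraries, in replicate 51, and the lowest, in replicate 19, so the groups overlapped. Means were 124 ± 57.1 and 77.6 ± 23.2, with a log2 difference of 0.48 (SE 0.49). The difference was 0.96 without increased-dose replicate 19, 0.27 without standard-dose replicates 9 and 41, and −0.10 with the hepatocyte covariate. CASP8 shares 6120 bases with FLACC1 on the opposite strand, and the strand setting of the read counting is not given in the sources used here. In replicate 19, where CASP8 had 31 reads, FLACC1 had 55, within its 31 to 70 in the other increased-dose libraries.

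CASP1 (chr9:35186420-35200328, minus strand) had normalized counts of 153, 169, 112, 146 and 112 at the increased dose and 50.7, 156, 177 and 103 at the standard dose. The highest and the lowest value both came from standard-dose pigs, replicates 33 and 9, and the means were 138 ± 25.5 and 122 ± 56.6. The log2 difference was 0.31 (SE 0.35), but it was −0.05 without standard-dose replicate 9, −0.28 without replicates 9 and 41, and −0.36 with the hepatocyte covariate. CASP1 thus had no stable direction between the doses.

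CASP2 (ENSSSCG00000016464, chr18:6941937-6966061, minus strand) had normalized counts of 96.8, 116, 99.3, 63.9 and 76.1 at the increased dose and 98.5, 75.0, 80.03 and 32.5 at the standard dose. Apart from 32.5 in standard-dose replicate 41, the standard-dose values lay within the increased-dose range. Means were 90.4 ± 20.5 and 71.5 ± 27.9, with a log2 difference of 0.41 (SE 0.34) that was 0.08 without replicate 41. The difference was 0.19 without standard-dose replicates 9 and 41 and 0.67 with the hepatocyte covariate.

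CASP9 (ENSSSCG00000003460, chr6:74706516-74730007, minus strand) was near the limit of detection, with 34 reads in all 9 libraries. Its reads were 0, 8, 3, 0 and 0 at the increased dose and 7, 11, 5 and 0 at the standard dose, and a count of 0 allows up to 3 reads. In normalized counts the highest 2 libraries were standard-dose replicates 9 and 17, at 10.4 and 10.1, but both groups held libraries without a read, and no fold is given at this depth. Its last 1083 bases overlap CELA2A, an elastase gene on the other strand, which had 0 to 14 reads per library.

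The 4 caspases that passed had log2 differences above 0, as had 50.8% of all genes that passed. Only that of CASP6 was above 0.5 in the main limma fit, but the CASP8 difference was 0.68 in edgeR and 0.67 in DESeq2. The median difference of all genes was 0.01. Summed over CASP6, CASP1, CASP2 and CASP8, the libraries held 373 to 527 normalized counts at the increased dose and 234 to 392 at the standard dose. Without CASP6 the sums were 311 to 379 at the increased dose and 203 to 340 at the standard dose, the lowest 2 being those of replicates 9 and 41.

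Setting CASP6 against the other caspases of the same library removes the effect of library depth. CASP6 took 16.5%, 16.5%, 23.5%, 28.6% and 25.9% of the reads of the 4 caspases in increased-dose replicates 3, 19, 27, 51 and 59, against 13.4%, 13.3%, 7.6% and 17.0% in standard-dose replicates 9, 17, 33 and 41. The shares averaged 22.2 ± 5.50% and 12.8 ± 3.85%, and they overlapped, since replicate 41 lay above replicates 3 and 19. The counting error was wide, with a 95% exact binomial interval of 24.7% to 32.7% in increased-dose replicate 51, against 8.5% to 19.7% in standard-dose replicate 9. Intervals cover counting error only. The share of CASP8 was 26.3 ± 11.0% and 25.2 ± 4.8%, that of CASP1 31.02 ± 8.89% and 37.9 ± 11.81%, and that of CASP2 20.5 ± 7.18% and 24.1 ± 12.7% (increased and standard dose).

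**Figure D2:**
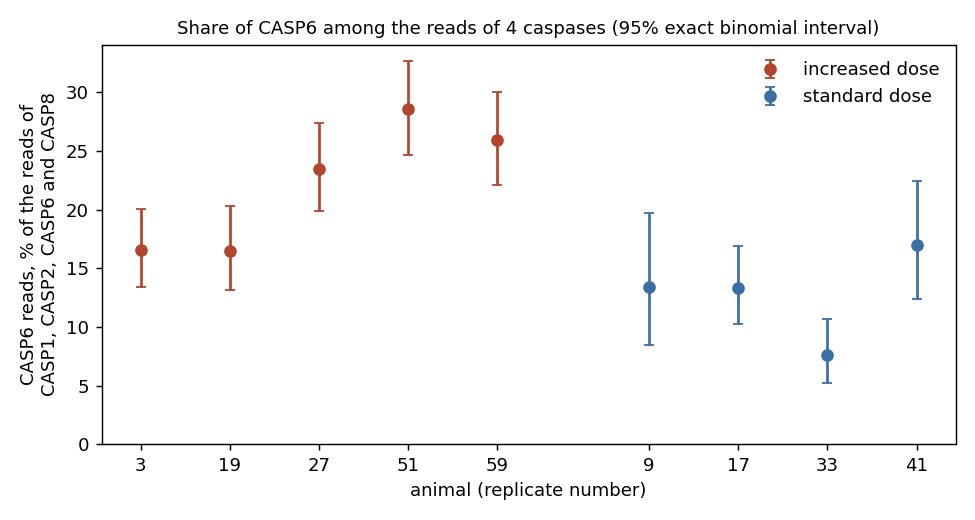
Share of CASP6, in percent, among the reads of CASP1, CASP2, CASP6 and CASP8 in each library, increased-dose pigs to the left in red and standard-dose pigs to the right in blue, with 95% exact binomial intervals as bars. Increased-dose replicates 27, 51 and 59 are above all standard-dose libraries, while replicates 3 and 19, at 16.5%, are level with standard-dose replicate 41 at 17.0%.

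How high one caspase stood above another was not itself used in choosing them, and these differences were tested within libraries. The choice did use the dose difference of CASP6, which the pooled differences between CASP6 and the other caspases also hold. The tests of those pairs are therefore not free of the choice. The order of the means over the 9 libraries of both doses was CASP1, CASP8, CASP2, CASP6 and CASP9, with normalized counts of 131, 103, 82.0, 74.5 and 3.81. CASP6 and CASP2 changed places at the increased dose, with means of 103 and 90.4, while CASP6 was the lower at the standard dose, with 38.5 against 71.5 for CASP2. The neighbours CASP1 and CASP8, CASP8 and CASP2, and CASP2 and CASP6 did not differ beyond their spread, with adjusted p of 0.298, 0.582 and 0.447 (exact sign-flip permutation tests on log2 levels, two-sided, Benjamini-Hochberg over 10 pairs, n = 9). CASP6 was below CASP1 by 0.94 ± 0.91 log2 units (SD) and in 7 of the 9 libraries, with an adjusted exact p of 0.0469. It was lower by 0.47 ± 0.71 at the increased dose (3 of 5 libraries) and by 1.53 ± 0.84 at the standard dose (4 of 4), so that the pooled value describes neither dose. That call was lost in turn without increased-dose replicates 3, 19 or 27 or standard-dose replicates 9, 17, 33 or 41, at adjusted exact p of 0.0625 to 0.0938, while the difference stayed between −1.08 and −0.73. The unadjusted exact sign-flip p of CASP6 and CASP1 was 0.0234. The adjustment also covered the pairs with CASP9, a gene near the limit of detection. Those pairs had the smallest p possible, which lowers the adjusted p of the other pairs. An adjustment without them was not made.

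CASP9 was below each of the other 4 caspases in all 9 libraries. The size of these differences is not given, since 4 libraries had no read of CASP9. Its adjusted exact p was 0.00977 against each, from an unadjusted 0.00391, the smallest that 9 libraries allow.

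The order within libraries was not the same in every pig. CASP1 was the highest of the 4 in 2 of 5 increased-dose and 3 of 4 standard-dose libraries, and CASP8 was the highest in the other 3 increased-dose libraries. CASP6 was the lowest in 1 of 5 increased-dose and 3 of 4 standard-dose libraries, and CASP2 was the lowest in 3 and 1. These places hold the dose difference of CASP6 and were not tested. Other caspases in the table had higher levels, since the 3 further ones that passed the filter had means of 94.7 to 461 normalized counts.

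Among animals of the same dose, CASP8 varied most of the 4 caspases that passed the filter, through 1 library. The SD of the log2 levels around the dose means was 0.88 for CASP8, larger than for 88.9% of the 5308 genes with a mean of 50 to 200 normalized counts. Without increased-dose replicate 19 it was 0.32, larger than for 17.7% of those genes. It was 0.48 for CASP6, 0.56 for CASP1 and 0.52 for CASP2, near the median of 0.50 for those genes, but 0.32 for CASP1 without standard-dose replicate 9 and 0.30 for CASP2 without standard-dose replicate 41. The SD of CASP9 was 1.5 at a few reads per library.

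CASP6 and CASP8 deviated together among pigs of 1 dose. After each dose mean was subtracted, which leaves out the dose difference, Pearson's r was 0.77 (exact permutation p = 0.00243, permuting libraries within doses, two-sided, n = 9) and Spearman's rho was 0.87 (exact permutation p = 0.00347). Adjusted over the 10 pairs of caspases, the exact p were 0.0243 and 0.0313, and CASP6 and CASP8 were the one pair below 0.05 by Pearson's r. In increased-dose replicate 19 both were at their lowest for that dose, and in replicate 51 both were at their highest. Without the 2 libraries farthest from the median of CASP6, r was 0.67. Without standard-dose replicates 9 and 41 it was 0.77, with an adjusted exact permutation p of 0.0417. With each library left out in turn r was 0.74 to 0.87, but the adjusted exact p was 0.0521 to 0.243 when increased-dose replicate 3, 19, 27, 51 or 59 or standard-dose replicate 41 was missing.

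**Figure D3:**
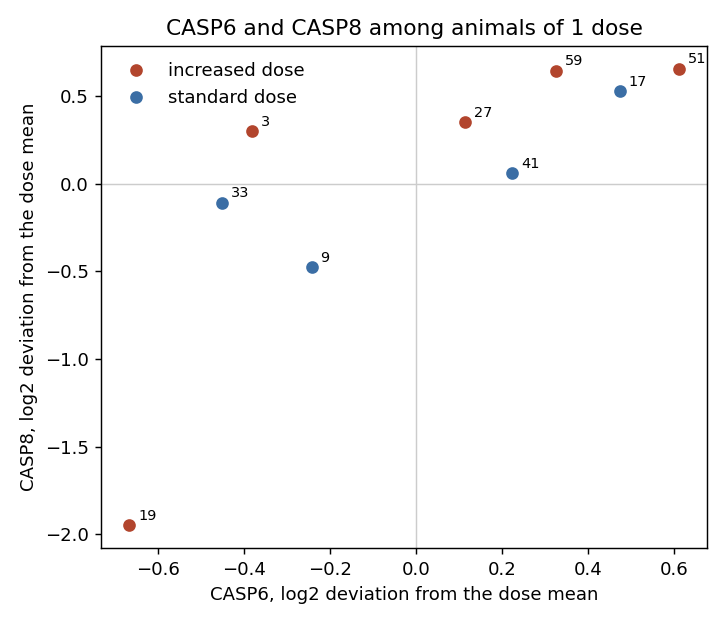
Deviation of CASP8 (vertical) against that of CASP6 (horizontal) from their dose means, in log2 units, for 5 increased-dose pigs in red and 4 standard-dose pigs in blue, with replicate numbers. The points run from the lower left, where increased-dose replicate 19 lies, to the upper right, with r = 0.77.

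The correlations of CASP2 with CASP6 and CASP8 were negative, but neither passed. For CASP6 and CASP2 r was −0.60 (adjusted exact permutation p = 0.206, n = 9), and for CASP2 and CASP8 it was −0.43 (0.252, also exact). CASP2 and CASP9 had r = 0.86, with an adjusted exact permutation p of 0.0521, and rho = 0.92, with an adjusted exact p of 0.0313, but CASP9 had only 34 reads. For CASP1, r was −0.08 to −0.01 in its 4 pairs (adjusted exact permutation p = 0.985 for each), but single libraries moved these values. Without standard-dose replicate 9, r of CASP1 was 0.71 with CASP2, 0.56 with CASP9, −0.42 with CASP8 and −0.52 with CASP6, and without increased-dose replicate 19 it was 0.60 with CASP8. None of these passed, with adjusted exact permutation p of 0.28 to 0.79.

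Across all 9 libraries, dose difference included, the 5 named genes most like CASP6 included YIPF5, LPXN, MEMO1 and FAM53C, with Pearson's r of 0.97, 0.95, 0.94 and 0.93 on log2 levels. They were picked for their likeness out of 12445 genes, of which 12 had r above 0.9 and the median r was 0.03. YIPF5, a protein of Golgi membranes, had 147 ± 23.9 and 99.5 ± 13.9 normalized counts (increased and standard dose). LPXN, the focal adhesion protein leupaxin, had 74.7 ± 22.4 and 33.7 ± 9.48. The choice was not stable, since leaving out 1 library kept between 0 and 3 of the 5 genes among the most like, and none without standard-dose replicate 33. On the same measure CASP8 had r = 0.64, above 94.6% of genes, while CASP1 had 0.21 and CASP2 0.06.

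The partners of the caspases were taken from 10 lists of the pathways they act in, from death receptors to substrates. Of the 116 genes listed, 98 were in the table and 87 passed the filter. No listed gene had a Benjamini-Hochberg adjusted p below 0.05 in limma, edgeR or DESeq2. DESeq2 gave no adjusted p for NINJ1 and KRT18. Over all 12446 genes limma called 0 (0%; 12.2% had an unadjusted p below 0.05), edgeR 0 (0%; 15% unadjusted) and DESeq2 195 (1.57%), of which 27 (0.217%) were higher at the increased dose. CASP6 was among those 27, as its choice implies. At an unadjusted limma p below 0.05, 9 listed genes were higher and 4 (FAF1, BNIP3, ZMAT3 and NINJ1) were lower, 14.9% together. Of all genes, 12.2% had such a p in either direction and 5.57% had it with higher values at the increased dose. The median difference of the listed genes was 0.15, with 58 (66.7%) above 0 and 29 below, against 50.8% of all genes above 0.

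**Figure D4:**
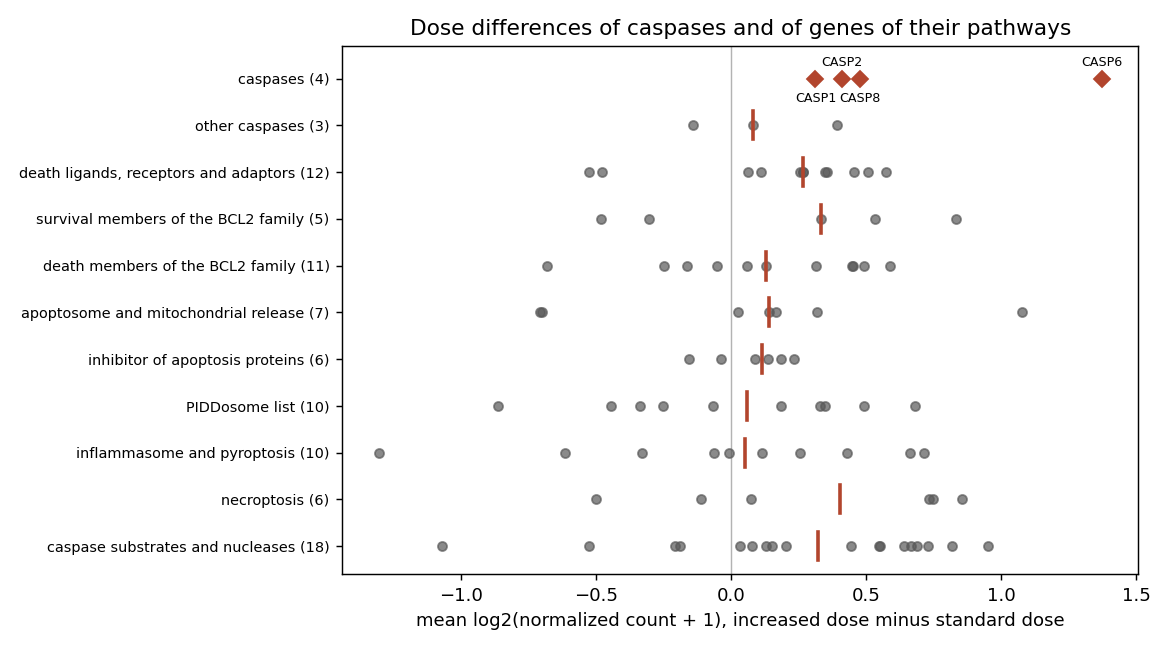
Difference of the mean log2(normalized count + 1), increased dose minus standard dose, for 4 caspases (red diamonds) and for the genes of 10 lists (grey points, with red bars at list medians), the number of genes that passed the filter in brackets. CASP6 lies at 1.37, to the right of all listed genes, which run from −1.30 to 1.08.

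At the death receptors, where CASP8 acts, 10 of 12 genes had differences above 0 and the median was 0.27. CFLAR, the inactive caspase relative that restrains CASP8, had 1350 ± 116 and 1120 ± 86.5 normalized counts (increased and standard dose), a log2 difference of 0.27 (limma, adjusted p = 0.517). TNFRSF1A, the main TNF receptor, had 773 ± 119 and 537 ± 186. TNFRSF21 and RIPK1, a death receptor and a kinase recruited to such receptors, had differences of 0.35 each. The adaptor FADD, which brings CASP8 to the receptors, had 179 ± 8.59 and 167 ± 97.3, and the receptor FAS was low at 28.2 ± 15.1 and 24.6 ± 6.45.

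Upstream of CASP9, the survival genes of the BCL2 family had a median difference of 0.33 over 5 genes and the death genes 0.13 over 11. MCL1, which keeps mitochondria closed, was among the highest of all listed genes, with 9046 ± 1463 and 5286 ± 1752 normalized counts, and its groups did not overlap. Its log2 difference was 0.83, which did not pass (limma, adjusted p = 0.397). BCL2, BCL2A1 and BCL2L1, of the same kind, had differences of −0.30, 0.53 and 0.33. Of the death genes, BNIP3 had 487 ± 50.4 and 885 ± 578, with standard-dose values of 523 to 1747. BCL2L13, BNIP3L and BMF had differences of −0.16, 0.06 and 0.13.

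The genes of the apoptosome and of mitochondrial release differed in both directions, and none passed. CYCS, which encodes cytochrome c, had 576 ± 119 and 513 ± 118 normalized counts, and APAF1, the platform for CASP9, had 42.3 ± 14.0 and 39.0 ± 30.98. VDAC1 and VDAC2, channels of the outer mitochondrial membrane, had differences of 0.03 and 0.14. AIFM1, a flavoprotein released from mitochondria, had 284 ± 30.7 and 532 ± 359, and the wide SD came from the standard-dose group, which reached 1062. AIFM2, a relative of AIFM1, had the largest positive difference of all listed genes, 1.08, with 179 ± 34.3 and 98.2 ± 56.8 (limma, adjusted p = 0.397). DIABLO, which frees caspases from their inhibitors, had a difference of −0.70, with standard-dose values of 204 to 764. Of 7 genes, 5 were above 0, with a median of 0.14.

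The list of inhibitor of apoptosis proteins, which hold caspases back, and of related genes had a narrow range. It ran from −0.16 to 0.23 over 6 genes, the narrowest of the lists with more than 5 genes. XIAP, the direct inhibitor of active CASP9, had 156 ± 14.8 and 142 ± 9.51 normalized counts, and BIRC3, BIRC2 and BIRC6 had differences of 0.23, 0.18 and 0.09. Around CASP2, 5 of the 10 genes of the PIDDosome list were above 0. CRADD, the adaptor that binds CASP2, had 43.6 ± 14.9 and 37.4 ± 9.07. MDM4, SESN1 and CDKN1A, from the same list, had differences of −0.25, 0.35 and 0.33.

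Around CASP1, 5 of 10 genes were above 0 and the median was 0.05. GSDMD, which CASP1 cuts to open a pore, had 70.6 ± 7.27 and 72.6 ± 19.2 normalized counts. Of the cytokine genes whose products CASP1 matures, IL1B was low at 21.4 ± 18.03 and 22.4 ± 24.3, and IL18 had 57.3 ± 23.6 and 86.0 ± 31.7. TXNIP and NEK7, which bind the inflammasome sensor NLRP3, had differences of 0.26 and 0.72. NINJ1, a protein that ruptures the membrane of dying cells, had 86.6 ± 18.9 and 303 ± 335, a difference of −1.30 (limma, adjusted p = 0.397). Its standard-dose values ran from 112 to 804, which made the SD of that group wide.

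Necroptosis, the form of death that CASP8 blocks, had a median difference of 0.40 over 6 genes. PGAM5, a mitochondrial phosphatase, had 296 ± 14.9 and 183 ± 52.0 normalized counts, and its groups did not overlap. RIPK3, the kinase of the pathway, had 83.0 ± 25.3 and 59.0 ± 48.9, and CYLD and TICAM1 had differences of −0.11 and −0.50. Among 18 caspase substrates and nucleases, 14 were above 0 and the median was 0.32. The lamin gene LMNA, whose product CASP6 cuts, had 1221 ± 391 and 870 ± 140, a difference of 0.45. VIM, the intermediate filament vimentin, had 3245 ± 239 and 1912 ± 556, with groups that did not overlap (limma, adjusted p = 0.397). GSN, APP and ROCK1, further substrates, had differences of 0.20, 0.55 and 0.03. In all lists together, 5 genes (MCL1, BID, MDM2, PGAM5 and VIM) had non-overlapping groups with higher values at the increased dose and 1 (NINJ1) with lower values, 6.9% of the 87 against 3.81% of all genes in either direction.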

How the data were processed

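Lung RNA of 9 pigs was sequenced with the QuantSeq 3′ mRNA-Seq FWD kit in 75-base reads. The authors trimmed with FLEXBAR 3.5.0, mapped to Sscrofa11.1 with TopHat 2.1.1 and counted with HTSeq-count 0.11.1 on Ensembl 96. The signal values deposited are reads per gene over the DESeq2 size factor of each library. The deposited columns of the authors' own comparison (mean, log2 fold change, its standard error, Wald score, p-value and adjusted p-value) were not used. All values were whole reads within 0.01, so reads were recovered by division. Gene positions were taken as the authors deposited them.

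The caspases and the lists were chosen with earlier results of these data known. Samples were grouped by the dose in their labels, which name no batch and beyond the sex do not say more of the animals. The p-values therefore measure the spread between these pigs. Replicates carry the animal numbers of the sample titles. The column of replicate 33 is named 31. No 2 libraries of a dose were alike within counting noise (chi-square of 11.7 to 175 per degree of freedom over genes).

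Genes with a mean over 20 were tested with limma 3.58.1 (mean-variance trend) on log2(normalized count + 1), two-sided, with Benjamini-Hochberg adjustment at 0.05 as the main test, because normalized values were deposited; DESeq2, the tool of the study, was an alternative. The others were edgeR 4.0.16 and DESeq2 1.42.0 on recovered reads, TMM factors, pseudocounts of 0.5 and 5, no filter or at least 10 in at least 4 libraries, each library left out, replicates 9 and 41 left out, and the hepatocyte markers as a covariate. Independent filtering of DESeq2 at 0.05 in place of its default of 0.1 was added after the results were seen. The default was adopted for the text after both counts had been seen, and the authors' setting is not given in the sources used here. The spread without each library and the order of levels at each dose were also added then. Fits were tested on simulated data with R 4.3.3 and Python 3.11.15 with scipy 1.17.1, numpy 2.4.6, pandas 2.3.3 and matplotlib 3.10.9.

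Genes named are the 5 caspases, the 4 of each list with the highest mean, the 5 most like CASP6 and its 2 neighbours. FADD, FAS, APAF1, CRADD, IL1B, IL18, LMNA, FAF1, ZMAT3, BID, MDM2, AIFM2, DIABLO and KRT18 were added once values had been seen. The other caspases are given as a range, and they and some further genes of this rule are otherwise not reported here. Names came from the authors' table, for 223 further genes from an Ensembl name table and for 647 from RefSeq genes with a reciprocal overlap of at least 80%. Bisulfite sequencing and plasma measurements were not analysed here.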

Additional observations from a re-analysis of the deposited data

Results flagged for a closer look

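One value was far from the others of its group. CASP8 in increased-dose replicate 19 had 26.4 normalized counts, while the other 4 increased-dose libraries had 129 to 166, a gap of 73.8% of the range of the group. It was the 1 such value among 10 groups of libraries (5 caspases at each dose). The nominal rate of the rule is about 1 in 20 for each group, which was not estimated from these data.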

How the results depend on the processing

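With DESeq2 on recovered reads 195 of all genes passed, and 218 with its independent filtering at 0.05. In limma, in edgeR and in every other alternative 0 passed. Of the listed genes 0 passed in each, but DESeq2 with its default filtering gave NINJ1 and KRT18 no adjusted p. The cause of the gap between the tools was not tested. The CASP1 difference moved to −0.28 without replicates 9 and 41 and to −0.36 with the hepatocyte covariate. The other caspases moved by less than 1 within-dose SD, and CASP6 was at 1.12 to 1.54 in 18 alternatives. Without replicates 9 and 41 CASP6 stayed 0.94 below CASP1 (−0.94) but missed the threshold (exact adjusted p = 0.156), and CASP1 was above CASP2 by 0.75 and passed (exact adjusted p = 0.0313). With a pseudocount of 0.5 the correlation of CASP2 and CASP9 was 0.86 and passed (exact permutation, adjusted p = 0.0417). Leaving out each library gave −1.08 to −0.73 for CASP6 minus CASP1, −0.70 to −0.39 for CASP6 minus CASP8 (past the threshold without increased-dose replicate 19) and 0.54 to 0.86 for CASP1 minus CASP2 (past it without standard-dose replicate 9). Correlations ranged from 0.74 to 0.87 for CASP6 and CASP8, −0.81 to −0.50 for CASP6 and CASP2, 0.72 to 0.93 for CASP2 and CASP9 and −0.76 to −0.14 for CASP8 and CASP9, the last 3 passing without standard-dose replicate 17 and CASP2 with CASP9 also without replicate 33. No paired analysis was possible because the dose groups share no replicate numbers. Depth limits CASP9, at 0 to 11 reads per library.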
